A study of Mus musculus with 14 samples.

Results

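The 10 genes described here mark the cells of small blood vessels in the spinal cord: *Cldn5*, *Pecam1*, *Cdh5*, *Tek*, *Kdr*, *Flt1*, *Slc2a1* and *Vwf* for endothelial cells, and *Pdgfrb* and *Rgs5* for pericytes, the mural cells that wrap capillaries. They were selected by their symbols from the 19215 genes of the whole spinal cord (WSC) RNA-seq tables, which held all 10. Of the 13189 cassette exons in the same dataset, 9 belonged to these genes by Entrez gene ID, in 4 of the 10 genes. The study compared where the neuronal RNA-binding protein NOVA contacts RNA in motoneurons (MNs) and in WSC, and sequenced the RNA of WSC. RNA-seq was performed on the spinal cord of 1 male and 1 female mouse aged 12 weeks, both carrying the Tg(SOD1)2Gur/J transgene (human wild-type SOD1) on a B6/SJL background. The UV crosslinking and immunoprecipitation (CLIP) libraries were all from mice aged 3 months on a C57BL/6 background. The MN libraries came from the hemizygous lines Chat:GFP-Nova #6 (Chat6, 4 libraries) and Chat:GFP-Nova #17 (Chat17, 4 libraries), in which the *Chat* promoter, active in cholinergic neurons such as MNs, drives GFP-tagged NOVA2. Each MN library pooled the cords of several mice and used antibodies against GFP. The 4 WSC CLIP libraries came from wild-type cords and used an anti-NOVA serum, so that genotype, antibody and pooling cannot be told apart from MN against WSC.

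Endothelial cells of the spinal cord form the blood-spinal cord barrier. They are sealed by tight junctions that contain claudin 5 (*Cldn5*) and by adherens junctions that contain VE-cadherin (*Cdh5*), and they take up glucose through GLUT1 (*Slc2a1*). Their survival and growth depend on VEGF ligands, which act through VEGFR2 (*Kdr*) and are also bound by VEGFR1 (*Flt1*), and on angiopoietins, which act through TIE2 (*Tek*). Pericytes are recruited by endothelial PDGF-B acting on the receptor encoded by *Pdgfrb*. NOVA binds clusters of the RNA motif YCAY, in which Y is C or U, and regulates alternative splicing. NOVA2 is best known in neurons and has also been described in vascular endothelium.

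The sequences below are the stretches of these genes in which the most NOVA tags of WSC lay, and the cassette exons whose inclusion was measured. All were read from the NCBIM37 (mm9) reference, 5′ to 3′ on the strand of the gene. For the 3 genes with the most CLIP tags, the pair of 30-base exon windows with the highest number of WSC tags is shown, with every YCAY (in DNA letters TCAT and TCAC, and with C as the first base also CCAT and, likewise, CCAC, searched on the sense strand only, overlapping matches included) in capitals.
*Slc2a1*, chr4:118808912-118808941, plus strand, coding sequence: TCACctacttcaaagtccctgagaccaaag
*Slc2a1*, chr4:118804788-118804817, plus strand, coding sequence: aCCACacTCACCACgctttggtctctctcc
*Rgs5*, chr1:171624356-171624385, plus strand, 3′UTR: tttagcgcatttTCATttcaaatgcatgag
*Rgs5*, chr1:171623236-171623265, plus strand, 3′UTR: tttctTCACattagttggaatagccgaatg
*Flt1*, chr5:148375768-148375797, minus strand, 3′UTR: aaagcttcTCACcagccccgacaaccagcc
*Flt1*, chr5:148374520-148374549, minus strand, 3′UTR: tatttTCATctgttTCATaccttgtctggg
All 6 windows held at least 1 YCAY. Among all 30-base windows within annotated exons, 42.7% held at least 1 YCAY in *Slc2a1*, 37.3% in *Rgs5* and 35.1% in *Flt1*. The match is a description of letters and was not tested.

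For the cassette exons, the exon is in capitals and 10 bases of intron on each side are in lower case. The exons of *Pecam1* lie at chr11:106542346-106542399 (54 nt), chr11:106533056-106533112 (57 nt) and chr11:106523316-106523338 (23 nt) on the minus strand, and that of *Tek* at chr4:94465818-94465970 (153 nt) on the plus strand.
*Pecam1* exon of 54 nt: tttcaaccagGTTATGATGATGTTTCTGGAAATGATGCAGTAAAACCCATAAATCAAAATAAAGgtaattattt
*Pecam1* exon of 57 nt: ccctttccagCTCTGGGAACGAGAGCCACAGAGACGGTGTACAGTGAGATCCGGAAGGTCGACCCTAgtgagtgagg
*Pecam1* exon of 23 nt: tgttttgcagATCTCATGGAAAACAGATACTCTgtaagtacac
*Tek* exon of 153 nt: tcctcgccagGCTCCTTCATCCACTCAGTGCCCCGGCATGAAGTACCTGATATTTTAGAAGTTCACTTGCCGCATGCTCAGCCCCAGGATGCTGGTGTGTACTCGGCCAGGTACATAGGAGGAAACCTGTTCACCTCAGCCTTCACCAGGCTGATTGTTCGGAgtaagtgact
Each of these 4 exons is an annotated coding exon of GENCODE vM1 with both ends matched. The lengths of 54, 57 and 153 nt are multiples of 3, and that of 23 nt is not.

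The genes lie on 8 chromosomes (mm9, GENCODE vM1). On the plus strand are *Slc2a1* (chr4:118781316-118809935), *Tek* (chr4:94405980-94541667), *Rgs5* (chr1:171585632-171625944), *Cldn5* (chr16:18776940-18778353), *Cdh5* (chr8:106625525-106668402), *Vwf* (chr6:125496792-125636697) and *Pdgfrb*, on chromosome 18. On the minus strand are *Flt1* (chr5:148373180-148537587), *Kdr* (chr5:76328852-76374483) and *Pecam1* (chr11:106515531-106611942).

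The RNA of the vessel markers was measured at depths of 72006019 (male) and 65625173 (female) reads on genes. Levels are given as RPKM, reads per kilobase of exon and per 1000000 reads on genes, and errors are SDs over the 2 libraries (n = 2). The cords carried the RNA of all major cell types: the summed RPKM was 3778 and 4205 for 6 neuronal genes and 7923 and 8550 for 6 oligodendrocyte genes in the male and the female library. Against this, the 10 vessel markers together reached 88.1 RPKM in the male and 74.2 RPKM in the female library.

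*Slc2a1*, the glucose transporter of the barrier, had the highest level of the 10 genes, with 41.1 RPKM (7642 reads) in the male and 36.7 RPKM (6211 reads) in the female library. Its mean of 38.9 ± 3.15 RPKM was 47.9% of the summed level of the 10 genes and ranked 1782 of 19215 genes. *Slc2a1* is also transcribed in astrocytes, so that its RNA in whole cord need not come from endothelium alone. *Rgs5*, a regulator of G protein signaling that marks pericytes, followed with 23.2 RPKM (3024 reads) and 19.1 RPKM (2276 reads) and ranked 3414. These 2 genes stood above the other 8 in both libraries.

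The junction genes were lower. *Cldn5* had 6.92 RPKM (705 reads) in the male and 4.86 RPKM (451 reads) in the female library. *Pecam1*, an adhesion molecule at endothelial contacts, had 3.34 RPKM (966 reads) and 2.76 RPKM (727 reads). *Cdh5* had 1.80 RPKM (518 reads) and 1.34 RPKM (351 reads). Per length, *Cldn5* was therefore above *Pecam1* and *Pecam1* above *Cdh5* in each library, with no overlap of the 2 libraries between these genes.

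Among the receptors, *Flt1* was the most abundant, with 5.23 RPKM (2802 reads) in the male and 3.47 RPKM (1691 reads) in the female library. *Kdr*, the main signaling receptor for VEGF-A, had 1.75 RPKM (859 reads) and 1.27 RPKM (567 reads), less than *Flt1* in both. *Tek* had 2.35 RPKM (789 reads) and 1.56 RPKM (479 reads). The RNA libraries did not mark strand, and CLIP tags antisense to *Tek* outnumbered its sense tags in WSC (347 and 21), so that reads of *Tek* and of an antisense RNA cannot be told apart. *Pdgfrb* had 2.16 RPKM (797 reads) and 2.92 RPKM (984 reads), and was the one member with the higher level in the female library. *Vwf*, the clotting factor of endothelial storage granules, was the lowest, with 0.272 RPKM (271 reads) and 0.231 RPKM (210 reads), and ranked 13455. It was the only member below the minimum of 1 RPKM set for comparisons between the libraries, which 9 of the 10 genes passed.

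**Figure D1:**
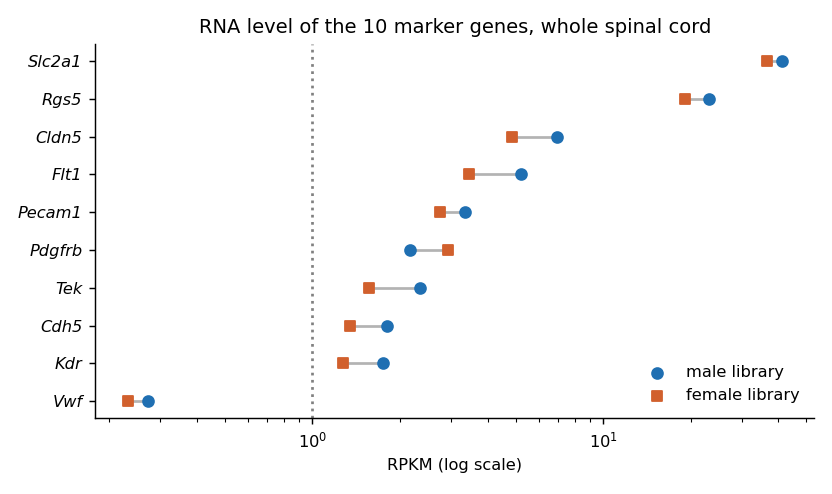
RNA level in RPKM (log axis) of the 10 marker genes in the male (circles) and female (squares) library, ordered by their mean, with a dotted line at 1 RPKM. *Slc2a1* and *Rgs5* lie above 19 RPKM in both libraries, *Vwf* below 1 RPKM, and *Pdgfrb* is the only gene with its square to the right of its circle.

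In the order of the mean levels shown by the plot of RPKM, the values of *Cldn5* and *Flt1* overlapped between the libraries. The same held for *Pecam1* and *Pdgfrb*, for *Pdgfrb* and *Tek*, for *Tek* and *Cdh5*, and for *Cdh5* and *Kdr*. Within each library, *Cldn5* was nevertheless above *Flt1*, *Tek* above *Cdh5*, and *Cdh5* above *Kdr*. *Pdgfrb* was below *Tek* in the male library and above both *Tek* and *Pecam1* in the female library. *Slc2a1*, *Rgs5* and *Vwf* were each separated from their neighbors.

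The male and the female library were next set side by side. With 1 library of each sex, sex, animal and preparation cannot be told apart, and no test of a difference between the sexes was possible. A ratio is therefore given with a 95% interval (exact, binomial) that covers counting error only, and a gene was counted as different when it was past 1.5-fold. Of the 9 members with at least 1 RPKM, 2 were past 1.5-fold toward the male library and 0 toward the female library, beside 2.35% and 1.57% of the 11940 genes of this level. The members' median log2 ratio of male over female was 0.43, and that of the 11940 genes was 0.01.

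All 8 endothelial genes, *Vwf* at less than 1 RPKM included, were higher in the male library. Of the 11940 genes of at least 1 RPKM, 51.3% were. The ratio was 1.51 (1.42 to 1.61) for *Flt1* and 1.501 (1.34 to 1.69) for *Tek*, the genes past 1.5-fold. Both lay at the threshold: with the scaling factors of edgeR or DESeq2 in place of total reads, 0 of 9 members were past it. *Cldn5* followed with 1.42 (1.26 to 1.61), *Kdr* with 1.38 (1.24 to 1.54) and *Cdh5* with 1.35 (1.17 to 1.54). The ratio was smaller for *Pecam1*, 1.21 (1.10 to 1.34), and for *Slc2a1*, 1.12 (1.08 to 1.16). For *Vwf* it was 1.18, with an interval (0.979 to 1.42) that includes equal levels.

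The 2 pericyte genes went in opposite directions. *Rgs5* was 1.21 (1.15 to 1.28) times as high in the male as in the female library, whereas *Pdgfrb* was 0.738 (0.672 to 0.811) times as high. In RNA from whole tissue, fewer cells of a type and less RNA per cell cannot be told apart. The intervals do not hold the spread between animals, which the design does not measure.

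The spread over all genes gives a scale for these ratios. Of the 2238 genes between 2 and 5 RPKM, the 5th and 95th percentiles of the log2 ratio were -0.46 and 0.55, and *Flt1*, at 0.59, was outside that range, whereas *Pdgfrb*, at -0.44, and *Pecam1*, at 0.28, were inside. Of the 2515 genes between 5 and 10 RPKM, they were -0.34 and 0.40, and *Cldn5*, at 0.51, was outside. The ratios of *Tek*, *Cdh5* and *Kdr* lay inside the wider range of the 1113 genes between 1 and 2 RPKM, -0.63 to 0.81. *Rgs5* and *Slc2a1* lay inside the range of the 4724 genes between 10 and 50 RPKM, -0.29 to 0.32. Measured against genes of their own level, 2 of 9 members were thus outside these percentiles. By definition, about 5% of the genes of each level lie below and about 5% above them.

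Other genes of the vessel wall were examined in the same way. Of 20 further endothelial genes, 14 had at least 1 RPKM, and 11 of these were higher in the male library, beside 51.3% of all genes of this level. Their median log2 ratio was 0.46. Of these 14 genes, 4 were past 1.5-fold toward the male library and 0 toward the female library: *Tie1*, the partner receptor of TIE2 (2.29-fold), *Nos3*, endothelial nitric oxide synthase (1.93-fold), *Plvap*, a component of fenestrated and leaky endothelium (1.67-fold), and the phosphatase gene *Ptprb* (1.502-fold, below the threshold with the scaling factors of edgeR or DESeq2). Among all genes of at least 1 RPKM these shares were 2.35% and 1.57%. *Tie1*, *Nos3* and *Ptprb* had mean levels of 1.01, 1.22 and 1.66 RPKM, and of all genes between 1 and 2 RPKM 16.6% were past 1.5-fold in either direction. The ratios of the most abundant genes of this list were smaller: *Ly6c1* was 1.23 times, *Cgnl1* 0.893 times and *Ly6a* 0.883 times as high in the male as in the female library. The direction was thus not the same for all genes of the list.

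The genes of junctions and transport across the barrier were near the ratio of all genes, with a median log2 ratio of 0.05 over 14 genes. In the male library 10 of them were higher, beside 51.3% of all genes of at least 1 RPKM. *Ocln*, the tight junction protein occludin, was 1.92-fold higher in the male library (2.05 and 1.07 RPKM), and *Abcg2*, a drug efflux pump, was 1.52-fold higher in the female library (6.82 and 10.4 RPKM). The 3 most abundant genes of this list were *Slc3a2*, *Tfrc* and *Itm2a*, at 1.03, 0.753 and 1.15 times the female level. Several genes of this list are transcribed in many cell types.

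Of 10 further mural genes, 7 had at least 1 RPKM and their median log2 ratio was -0.09. *Notch3*, the Notch receptor of mural cells, was 1.68-fold higher in the male library and was the 1 of these 7 genes past 1.5-fold. Below 1 RPKM, *Kcnj8*, *Des* and *Anpep* were 1.74-fold, 1.90-fold and 1.13-fold higher in the male library. *Mcam*, *Vtn* and *Notch3* were the most abundant, with mean levels of 29.6, 17.7 and 2.74 RPKM.

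The ligands that act on the members' receptors were near the level of all genes in this ratio. Over 10 ligands and co-receptors with at least 1 RPKM the median log2 ratio was -0.02, 5 of 10 were higher in the male library, and 0 of 10 were past 1.5-fold. *Vegfb*, a ligand of VEGFR1, had the highest level of this list with 63.9 and 63.4 RPKM in the male and the female library. *Vegfa* had 11.4 and 10.7 RPKM. The PDGF family member *Pdgfd* had 15.4 and 19.6 RPKM. Of 12 genes of the Wnt pathway that forms the barrier, 11 had at least 1 RPKM. Of these 11, 9 were higher in the male library, beside 51.3% of all genes of this level. None of the 11 was past 1.5-fold, and their median log2 ratio was 0.09. The most abundant of them were *Ctnnb1*, *Tspan12* and *Lrp6*, with mean levels of 117, 23.1 and 7.401 RPKM. The remaining gene of this list, *Lef1*, was below 1 RPKM. It had 191 reads in the male and 43 in the female library, a ratio of 4.05 (2.90 to 5.78).

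**Figure D2:**
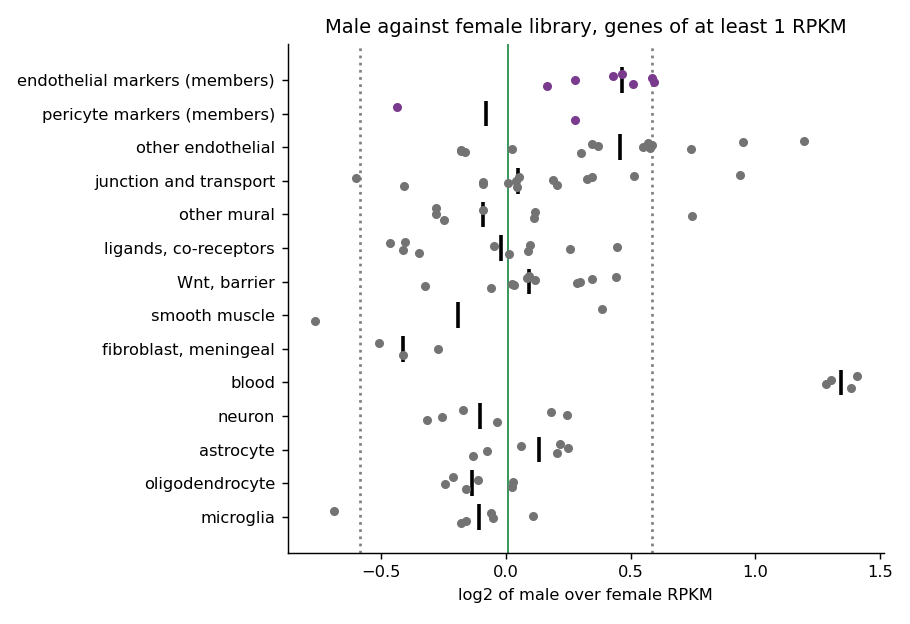
Log2 ratio of male over female RPKM for every gene of at least 1 RPKM in each list (points, the marker genes in purple), with list medians as black bars, dotted lines at 1.5-fold in each direction and a green line at the median of all 11940 genes (0.01). The 7 endothelial marker genes of this level all lie right of the green line, as do the 4 blood genes, which lie past the dotted line at 1.5-fold.

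Blood genes differed more between the libraries than the vessel markers, as the plot of log2 ratios shows. Of 8 blood genes, 4 had at least 1 RPKM and 4 of these 4 were past 1.5-fold toward the male library: *Hba-a2* with 283 and 108 RPKM, *Hbb-b1* with 85.5 and 35.1, *Hbb-b2* with 76.4 and 31.0, and *Alas2*, the heme synthesis enzyme of red cells, with 10.4 and 3.92. Reads of the near-identical globin copies could be split by the counting, so that the values of single globin genes are uncertain. Summed over the list, blood genes had 456 RPKM in the male and 181 RPKM in the female library. The 4 blood genes below 1 RPKM did not all share this direction. The platelet gene *Pf4* had 9 reads in the male and 58 in the female library, the neutrophil genes *S100a9* 8 and 12 and *S100a8* 2 and 0, and *Hba-a1* 15 and 6. Fibroblast and meningeal genes moved the other way, with 14.0 and 18.8 RPKM summed over 6 genes and 0 of 3 genes of at least 1 RPKM higher in the male library (median log2 ratio -0.41). The smooth muscle genes were divided. *Tagln* was 1.70-fold higher in the female library (2.42 and 4.11 RPKM) and had the highest level of this list, whose sum was 5.28 and 6.21 RPKM. The other 4 genes of this list were higher in the male library, by 1.31-fold for *Smtn*, 1.15-fold for *Acta2*, 1.93-fold for *Myh11* and 2.49-fold for *Cnn1*, the last 3 at less than 1 RPKM. The part of blood content or of attached meninges in the vessel markers' ratios was not tested.

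The lists of the parenchyma stayed nearer to all genes. The median log2 ratio was -0.11 for 6 neuronal, 0.13 for 6 astrocyte, -0.14 for 6 oligodendrocyte and -0.11 for 6 microglial genes. The 1 gene of these lists past 1.5-fold was the microglial *Aif1*, 1.61-fold higher in the female library (6.86 and 11.1 RPKM).

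Splicing of the vessel markers was described next. For inclusion, the 2 inclusion junctions were averaged, and this average was taken as a percentage of itself plus the skipping reads. The 9 cassette exons lay in *Pecam1* (4), *Slc2a1* (3), *Tek* (1) and *Pdgfrb* (1). For 6 of the 9, each library had at least 10 junction reads.

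For *Pecam1*, the exon of 303 nt had 20 and 25 reads on its inclusion junctions and 0 on the skipping junction in the male library, and 13, 14 and 1 in the female library. Inclusion was 100% (Wilson 95% interval from 85.4%) and 93.1% (69.4% to 98.8%). The exon of 54 nt had 27, 5 and 0 reads in the male and 27, 9 and 2 in the female library, an inclusion of 100% (from 80.6%) and 90.0% (69.9% to 97.2%). Both exons were thus included in nearly all reads of both libraries, with 1 and 2 skipping reads in the female library alone. The exons of 57 and 23 nt were too thinly covered to be tested: 11 junction reads in the male and 1 in the female library for the first, and 6 and 5 for the second. Their intervals in the male library were wide, with inclusion of 83.3% (43.6% to 97.0%) and 100% (43.9% to 100%).

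In *Slc2a1*, the exons of 132 nt and 114 nt had 0 inclusion reads, against the same 46 skipping reads in the male and 16 in the female library. A count of 0 allows an inclusion of up to 6.52% and 18.8%. These skipping reads span the junction from the shared upstream exon to the exon of 96 nt (chr4:118792996-118793091), which itself had 46 and 78 inclusion reads in the male and 16 and 46 in the female library and 0 skipping reads. Its inclusion was 100% in both, from 94.2% and 89.0% by the Wilson interval. The exon of *Tek* had 9 and 10 inclusion reads in the male and 2 and 14 in the female library, with 0 skipping reads in both. *Pdgfrb* had an exon of 75 nt, on chromosome 18, with 0 inclusion reads and 21 and 9 skipping reads, so that a count of 0 allows up to 14.3% and 33.3%.

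**Figure D3:**
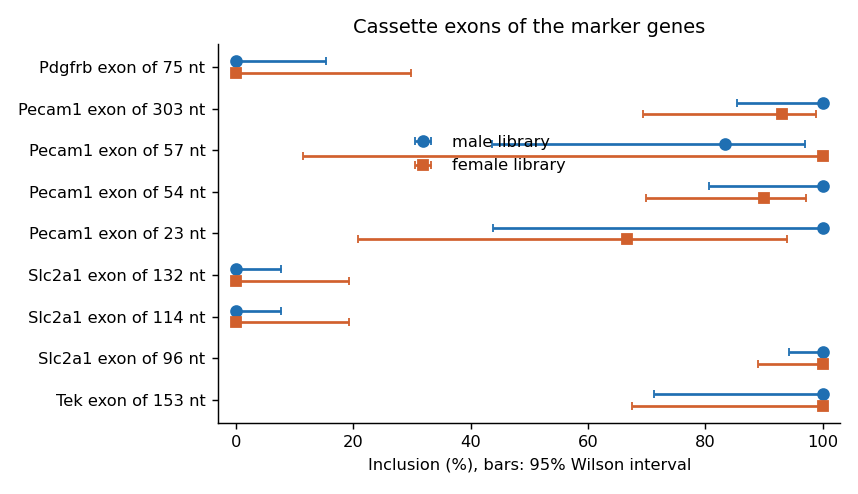
Inclusion in percent of the 9 cassette exons in the male (circles) and female (squares) library, with 95% Wilson intervals as bars. The exons fall at 0% or at 66.7% to 100%, and the 2 libraries' intervals overlap for every exon.

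By Fisher's exact test (two-sided) on inclusion and skipping counts, which compares these 2 libraries and not the sexes, 0 of the 6 exons with enough reads differed at an FDR of at most 0.1, beside 4.26% of the 9396 exons tested. The unadjusted p was 0.429 for the *Pecam1* exon of 303 nt, 0.496 for that of 54 nt and 1 for the other 4, so that 0 of 6 were below 0.05. Those 4 had only inclusion or only skipping reads in both libraries, so the test could find no difference in them. Of the 4, 2 share the same skipping reads. With 16 to 124 junction reads in a library, differences of the size seen for the 2 *Pecam1* exons were not detectable at this depth. As the plot of inclusion shows, the exons were at an extreme: 4 of the 6 were at 95% or more and 2 at 0%, where 47.9% of all exons tested were at 95% or more and 15.7% at 5% or less.

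The CLIP libraries were used to ask how much NOVA contact the RNA of the vessel markers had. The 8 MN libraries held 2023726 unique tags in all, from 65961 to 871804 a library, and the 4 WSC libraries 17353049, from 2213104 to 6095995. Of these tags, 72.4% to 78.0% in MN and 80.7% to 81.5% in WSC lay on the sense strand of 1 protein-coding gene. Exons held 33.6% to 46.8% of the gene tags in MN and 61.4% to 66.8% in WSC. *Chat*, the gene whose promoter drives the tagged protein, had 300.1 to 632.8 RPM (tags per 1000000 tags on genes of the library) in MN and 46.5 to 65.8 in WSC (log2 difference 3.08, SE 0.13, edgeR adjusted p = 3.31e-17). The summed tags of the 10 vessel markers were 40.7 to 177 RPM in MN and 61.6 to 89.0 in WSC, with overlapping ranges.

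*Slc2a1* had the most tags in WSC, 97, 143, 140 and 58 in replicates 1 to 4, against 1, 1, 3 and 1 in Chat6 and 1, 0, 1 and 10 in Chat17. Its level was 31.7 ± 2.76 RPM in WSC (SD, n = 4) and 11.7 ± 6.33 in MN (SD, n = 8). The lowest WSC library, at 28.8 RPM, was above the highest MN library, at 20.01 RPM, a value that rested on 1 tag. How many of all genes separate in this way was not counted. Of its 438 WSC tags, 306 lay in the coding sequence and 83 in the 3′UTR. The first 30-base window printed above held 67 WSC tags and 2 MN tags, and the second 62 and 0.

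*Rgs5* was next, with 48, 81, 86 and 57 tags in WSC, 2, 0, 6 and 6 in Chat6 and 1, 4, 4 and 22 in Chat17. The level was 21.1 ± 7.29 RPM in WSC and 28.3 ± 17.2 in MN, and the ranges overlapped. Tags of *Rgs5* were concentrated in its 3′UTR, with 250 of 272 in WSC and 42 of 45 in MN. The upper window in the 3′UTR held 40 WSC tags and 3 MN tags, and the other 20 and 2. *Rgs5* carried no tag in 1 of the 8 MN libraries, Chat6 replicate 2.

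*Flt1* had 35, 38, 59 and 30 tags in WSC, 0, 4, 6 and 5 in Chat6 and 0, 1, 0 and 16 in Chat17, or 12.5 ± 3.75 and 17.3 ± 20.3 RPM. Its tags were spread over introns (74 of 162 in WSC), the coding sequence (36) and the 3′UTR (36), and its windows held at most 8 WSC tags. The remaining endothelial genes had few tags. *Vwf* had 33 in the 4 WSC libraries and 5 in the 8 MN libraries, *Cdh5* 29 and 3, *Tek* 21 and 8, *Kdr* 11 and 2 and *Pecam1* 10 and 11. *Pdgfrb* had 37 and 5. *Cldn5* had 0 tags in each of the 12 libraries, and a count of 0 (3 tags over the group) allows up to 0.213 RPM in WSC and 1.93 in MN.

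Tests across genes were made with edgeR's quasi-likelihood test on the tags of gene spans, MN against WSC. At the minimum tag count that edgeR sets for its fit, 4536 genes were tested, 29.1% were lower and 28.1% higher in MN (adjusted p of at most 0.01), and 0 of the 10 members had enough tags to be among them. Without that minimum, 16430 genes with at least 1 tag were tested, 15.9% were lower and 7.18% higher in MN, and 9 members were tested, all but *Cldn5*. Of these, *Slc2a1* was lower in MN and *Pecam1* higher. The median log2 difference of all genes in this fit was -0.31, and with the size factors of DESeq2 it was -0.17.

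For *Slc2a1* the log2 difference of MN against WSC was -1.56 (SE 0.33, edgeR adjusted p = 1.93e-05), larger than the shift of all genes. An exact permutation test (two-sided) over the 12 libraries gave p = 0.00404 for *Slc2a1*, unadjusted, and p of 0.283 to 0.885 for the other 8 members with tags. The value for *Slc2a1* is the lowest that 8 MN and 4 WSC libraries allow, and any gene whose groups separate reaches it. How many of all genes reach it was not counted. The call did not hold on exon tags alone, where the log2 difference was -0.90 (SE 0.38, edgeR adjusted p = 0.0859). The exon fit kept most *Slc2a1* tags, 15 of 18 in MN and 393 of 438 in WSC. It was scaled to exon tags, which were a smaller share of gene tags in MN than in WSC. A difference between exons and introns of *Slc2a1* cannot be read from the change. In that fit, of 15234 genes, 8.46% were lower and 3.83% higher in MN, and the median log2 difference of all genes was -0.48. With the Chat17 line alone the log2 difference was -1.30 (edgeR adjusted p = 0.0102).

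For *Pecam1* the log2 difference was 3.08 (SE 0.65, edgeR adjusted p = 2.19e-05) and rested on 1 library. Chat6 replicate 2 held 6 of the 11 MN tags, at 88.3 RPM, and the midpoints of these 6 tags lay within 3 nt of each other, between 106517438 and 106517441 on chromosome 11, in an intron. Without that library the log2 difference was 2.05 and was no longer called (edgeR adjusted p = 0.0548).

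*Rgs5* was not called on gene spans, with a log2 difference of 0.41 (SE 0.27, edgeR adjusted p = 0.265). On exon tags alone it was higher in MN by 1.14 on the log2 scale (SE 0.29, edgeR adjusted p = 0.00107). *Rgs5* was the 1 member called in that fit, where the median of all genes was -0.48. The fit held nearly the same *Rgs5* tags, 43 of 45 in MN and 266 of 272 in WSC. Its library totals were exon tags, which were 33.6% to 46.8% of gene tags in MN and 61.4% to 66.8% in WSC. The 2 fits thus differ in scale, and a gain particular to exons cannot be read from them. *Tek* and *Flt1*, at log2 differences of 1.59 (edgeR adjusted p = 0.0455) and 0.67 (edgeR adjusted p = 0.0983), were not called. *Kdr*, *Vwf*, *Pdgfrb* and *Cdh5* had log2 differences of 0.55, 0.28, 0.18 and -0.18 with SEs of 0.68 to 1.07, and were not called (edgeR adjusted p of 0.733 to 0.876). The 2 lines were compared directly as well, and none of the 9 members had an edgeR adjusted p below 0.848 for Chat17 against Chat6 (1 of 9, *Cdh5*, at an unadjusted p below 0.05). In that comparison 0 of all 13876 genes tested were called, so it does not show that the lines agree on the members.

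**Figure D4:**
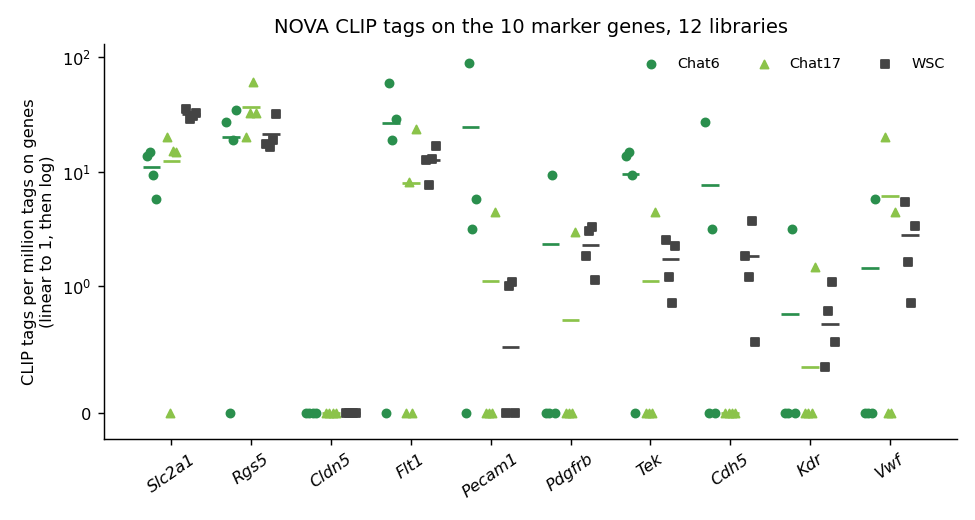
CLIP tags in RPM (tags per 1000000 tags on genes) of the 10 marker genes in the 4 Chat6 (circles), 4 Chat17 (triangles) and 4 WSC (squares) libraries, with group means as short lines, on an axis that is linear up to 1 and logarithmic above. Among these 10 genes, only for *Slc2a1* do all WSC libraries lie above all MN libraries, a separation that was not counted over all genes. The highest point of *Pecam1*, 88.3, is Chat6 replicate 2.

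Related genes were counted in the same fits. Without the minimum tag count, where 15.9% of all genes were lower and 7.18% higher in MN, 0 of 19 further endothelial genes and 0 of 7 further mural genes with tags were called in either direction, with medians of 0.20 and 0.52 on the log2 scale beside the -0.31 of all genes. On exon tags, 1 of 20 endothelial and 1 of 7 mural genes were higher in MN and 0 lower, beside 3.83% and 8.46% of all genes. With the minimum tag count, 1 further endothelial gene was tested. It was higher in MN (log2 difference 0.59), as were 28.1% of the 4536 genes of that fit. Of the 15 ligands and co-receptors, 4 were higher and 2 lower in MN without the minimum, and on exon tags 1 of 14 was higher and 0 lower. Of the 14 genes of junctions and transport, 3 were higher and 2 lower without the minimum, and 2 were higher and 0 lower on exon tags. Of 6 astrocyte genes, 5 were lower in MN without the minimum and 1 on exon tags, with 0 higher in both fits.

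The tags of WSC were finally set against the RNA reads of the same genes, although the RNA came from other mice of another background. Over the 10970 genes of at least 1 RPKM matched by symbol, the median was 53.6 exon tags (4 WSC libraries together) per 1000 reads (mean of the 2 RNA libraries). *Rgs5*, with 100 tags per 1000 reads, was at or above 65.98% of genes, and *Slc2a1*, with 56.7, was close to the median. *Cdh5* had 46.0, *Flt1* 39.2 and *Pdgfrb* 34.8 tags per 1000 reads. *Kdr*, *Tek* and *Pecam1* were lower, with 9.82, 9.46 and 8.27, at percentiles of 17.5, 16.9 and 15.1 among the genes. *Cldn5*, with 578 reads on average and 0 tags, was among 289 genes of this level without an exon tag. For comparison, the median was 129 over 5 neuronal genes, 40.1 over 6 astrocyte genes, 11.6 over 6 microglial genes and 5.53 over 6 oligodendrocyte genes.

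**Figure D5:**
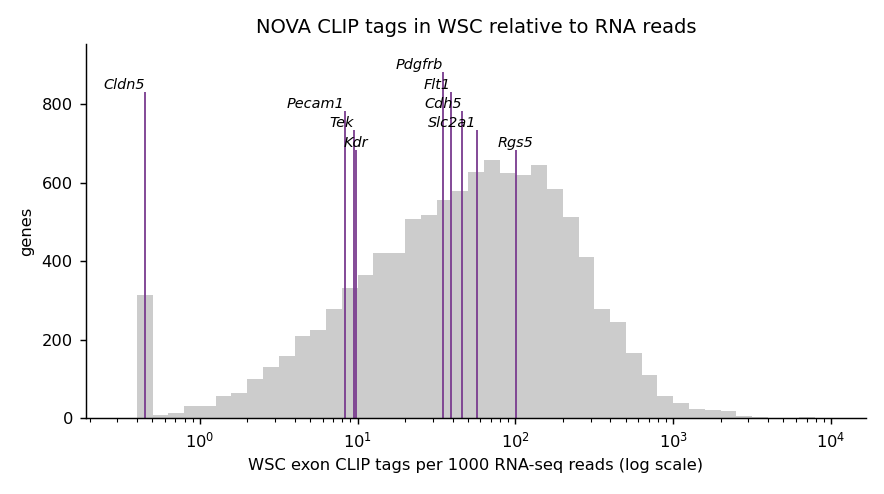
Number of genes (grey bars, 10970 genes) by the number of WSC exon CLIP tags per 1000 RNA-seq reads (log axis), with the 9 marker genes of at least 1 RPKM as purple lines. *Rgs5* (100) and *Slc2a1* (56.7) lie in the middle of the distribution, *Kdr*, *Tek* and *Pecam1* below 10, and *Cldn5* in the leftmost bar, in which the 289 genes with 0 tags are placed.

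Few tags lay near the cassette exons. Within 500 nt of the 9 exons, WSC had 9 tags at the 96-nt exon of *Slc2a1* and at most 3 at any other, and MN had at most 1 at each. The counts are too low for a comparison of MN and WSC at these exons.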

How the data were processed

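The RNA tables hold, per the deposited files, read counts per gene and RPKM. The authors trimmed poly(A)-selected, paired-end reads, aligned them to mm9 with OLego, and counted reads per gene and per exon junction with Quantas. Versions were not given in the sources used here. The library kit does not mark strand. The 2 tables were joined by gene ID, since 25 symbols differed. The CLIP files hold tag positions, 1 line per unique tag, deposited after the authors removed the linker, mapped reads to mm9 with Novoalign, collapsed duplicates and removed tags beside sequences like the reverse transcription primer.

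Tags were counted by their midpoint on the sense strand of genes of GENCODE vM1, and MN was compared with WSC by edgeR's quasi-likelihood test (FDR of at most 0.01, Benjamini-Hochberg) on the tag counts. Because 0 members passed edgeR's filter on low counts, member values come from the planned fit without it. Cassette exons with at least 10 junction reads in each library were tested by Fisher's exact test (FDR of at most 0.1). Ratios between the RNA libraries were compared at 1.5-fold over genes of at least 1 RPKM. Intervals and limits cover counting error only. The study calls the libraries of each kind biological replicates. All 10 members are named; of other lists, at most the 3 genes with the highest mean RPKM and any gene past 1.5-fold. *Myh11*, *Cnn1*, *Pf4*, *Hba-a1*, *S100a8*, *S100a9*, *Kcnj8*, *Des*, *Anpep* and *Lef1* were named after their values were seen. The members and lists were chosen with earlier results of these data known.

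On simulated data, 99.5% of 200 exons whose inclusion was changed by a share of 0.3 were recovered (9396 exons, 5 others called). Of 200 genes changed 4-fold in CLIP tags, 71.0% were recovered (15820 genes, 1 other called). The changed exons and genes were drawn only above minimum counts that no member reached, so these rates do not apply to the members. R 4.3.3, edgeR 4.0.16, DESeq2 1.42.0, Python 3.11.15, scipy 1.17.1, pandas 2.3.3 and samtools 1.23.1 were used.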

Additional observations from a re-analysis of the deposited data

Results flagged for a closer look

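Among 18 groups of CLIP libraries tested for a library far from the others by Dixon's criterion, 6 had one. In MN these were *Pecam1* in Chat6 replicate 2 (88.3 RPM, tags per 1000000 tags on genes), *Cdh5* in Chat6 replicate 1 (27.2), *Kdr* in Chat6 replicate 3 (3.13), *Vwf* in Chat17 replicate 1 (20.01) and *Pdgfrb* in Chat6 replicate 3 (9.39). These values rest on 6, 2, 1, 1 and 3 tags. The criterion's chance rate of about 1 in 20 assumes normally distributed values. It does not hold for so few tags in libraries of unequal size, so the 6 of 18 show no excess. In WSC it was *Rgs5* in replicate 4, at 31.9 RPM.

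Tags on the strand opposite to *Tek*, which no comparison used, numbered 347 in the 4 WSC libraries (80, 106, 119 and 42) beside 21 sense tags, and 36 in the 8 MN libraries. Antisense tags were 94.3% of the WSC tags at *Tek*, where the median over 12197 genes with at least 20 tags was 0.291%. A share at least as high was found in 3.16% of these genes.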

How the results depend on the processing

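In TPM the summed level of the 10 members was 243 in place of 81.2 RPKM. The number of members past the fold threshold between the RNA libraries was 2 at 1.5-fold, 0 with edgeR's TMM factors, 0 with DESeq2 size factors, 6 past a log2 ratio of 0.32 (15.7% of genes) and 0 at 2-fold. Cassette exons called fell from 400 to 249 at an FDR of at most 0.05, with 0 member exons in both. CLIP calls over genes fell from 2598 to 1094 on exons only and ranged from 1889 to 2820 when 1 library was left out. Members called numbered 2 without the filter, 0 with edgeR's filter, 1 on exons only, 0 with the Chat17 line alone and 1 to 2 when 1 library was left out; the 1 was without Chat6 replicate 2. The combinations with no filter were chosen after seeing the data.

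Whether replicate numbers pair the CLIP libraries was not tested. Of 12 same-numbered pairs, 3 correlated above 0.1 (highest 0.198, median 0.0184, against a median of -0.00513 for other numbers). Of 12 libraries, 6 correlated best with their own number. With a replicate block 2153 genes were called in place of 2598.

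Signs turned for members that were not called on gene spans. The log2 difference of *Cdh5* was 0.34 with the replicate block and 1.03 with Chat6 alone. It was -4.99 with Chat17 alone, where *Cdh5* had 0 tags, and -1.58 to 0.55 when 1 library was left out. *Vwf* was -0.0012 with the block, -0.74 with Chat6 alone and -0.24 to 0.82 when 1 library was left out. *Kdr* was -0.0046 to 0.79 and *Pdgfrb* -0.71 to 0.36 when 1 library was left out. *Pdgfrb* was -4.52 on exons, where MN had 0 tags, and -0.28 with Chat17 alone. *Rgs5* was -0.0075 with Chat6 alone. The causes were not tested.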
